A study of Mus musculus with 6 samples.

Results

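Ribosome biogenesis factors build the ribosome without being part of the finished particle, and 45 of them were followed here as a group in ribosome profiling of MIN6, a line of mouse insulinoma cells that makes and secretes insulin. The genes were chosen by name from a count table of 21652 genes and were set in 3 classes: 14 small nucleolar ribonucleoprotein (snoRNP) and RNA polymerase I (Pol I) factors, 16 factors of 40S assembly and 15 factors of 60S assembly. All 45 had a row in the table and enough counts to be tested. The cells expressed either sgLTN1, a CRISPR guide against Ltn1, or sgNT, taken here as the non-targeting guide, and no other agent or allele was given for either group. Each group held 3 libraries of ribosome footprints, the short mRNA fragments that ribosomes shield from RNase I. The labels do not say whether a group was a clone or a pool of edited cells, nor whether its libraries stem from separate cultures. The p-values here therefore weigh differences against a spread between libraries that may be technical.

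Ribosome assembly starts in the nucleolus, where Pol I transcribes the long precursor of the rRNAs and where snoRNPs methylate and pseudouridylate it at sites chosen by base pairing. Most early factors of the small subunit then gather in a large particle, the small-subunit (SSU) processome, and pre-40S particles are finished in the cytoplasm. The large subunit matures through nucleolar, nuclear and cytoplasmic particles from which placeholder proteins are removed by GTPases and AAA-type ATPases. Ltn1, the gene targeted here, encodes listerin, a ubiquitin ligase that acts on incomplete nascent chains held in 60S subunits after a stalled ribosome has split.

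The libraries held 11198735, 9683201 and 4993245 counts in sgLTN1 libraries 1 to 3 and 4373467, 7802364 and 4479680 counts in sgNT libraries 1 to 3. Levels are given in CPM, a gene's counts relative to the total of its library, after scaling of the libraries by the trimmed mean of M-values (TMM). Ltn1 kept 46.9% of its sgNT level, with 67.2 ± 3.67 CPM in sgLTN1 cells and 143 ± 1.84 CPM in sgNT cells (SD, n = 3 each), and the log2 fold change was -1.09 with an adjusted p of 9.24e-05 by edgeR's quasi-likelihood test. Of 10 beta-cell markers 9 were well covered, with a summed level of 93035 to 114560 CPM in sgLTN1 libraries and 94831 to 105274 CPM in sgNT libraries, and the glucose transporter gene Slc2a2 was too low to be tested. The 5 acinar markers summed to at most 4.78 CPM in sgLTN1 libraries and 1.94 CPM in sgNT libraries. The 6 fibroblast markers summed to 8.25 to 12.3 CPM in sgLTN1 libraries and 12.0 to 12.6 CPM in sgNT libraries, the 5 macrophage markers to 26.9 to 29.3 CPM and 29.1 to 36.2 CPM, and 5 genes of other islet cells to 582 to 661 CPM and 584 to 616 CPM in the same order. No marker was at 0 in all libraries, and the part of these levels in the results was not tested. Fewer cells of a type and less RNA per cell cannot be told apart in bulk libraries, and footprints do not separate mRNA level from translation.

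No ribosome biogenesis factor changed past the threshold between sgLTN1 and sgNT cells. Across the 12782 genes tested with edgeR's quasi-likelihood test, 23 genes, or 0.180%, had an adjusted p below 0.05, and none of the 45 was among them. The smallest adjusted p of the group by edgeR was 0.152, for Bms1. At an unadjusted p below 0.05, 3 of the 45 (6.67%) passed by the same test and all 3 were lower in sgLTN1 cells: Bms1, Nob1 and Npm1. Among all tested genes 15.6% were below that value, made up of 8.00% higher and 7.56% lower. The factors' share lay under the background for both directions together and close to it for lower genes. In 7 of the 45 (15.6%) the groups were fully apart in their CPM values, with 1 higher (2.22%) and 6 lower (13.3%) in sgLTN1 cells. Among all tested genes the groups were apart in 20.2%, made up of 10.1% higher and 10.1% lower.

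The differences were small and most had the same sign. The log2 fold change, sgLTN1 over sgNT, was below 0 for 34 factors (75.6%) and above 0 for 11, while it was below 0 for 52.7% of all tested genes. The median over the factors was -0.07 and the median over all tested genes was -0.02. With libraries scaled by their total counts in place of TMM, 40 factors (88.9%) and 66.9% of all genes were below 0, and the median over all genes was -0.09. Without sgLTN1 library 2 the shares were close, with 24 of 44 factors (54.5%) and 49.6% of all genes below 0. The factors were also chosen with earlier results of these data known. With TMM and all libraries their log2 fold changes ran from -0.40 for Nob1 to 0.18 for Tsr1, with a median standard error of 0.11. The 95% interval of the log2 fold change lay wholly within 0.5 on either side of 0 for 39 factors. It reached past 0.5 for Gar1, Nhp2, Bms1, Ddx10, Nob1 and Rrs1. The standard errors were worked back from the test statistic, and for some factors, such as Nop14, they are smaller than the gene's p-value implies. Those in the authors' deposited table were larger, for example 0.152 for Bms1 and 0.203 for Nob1, against 0.0907 and 0.117 here. The intervals may therefore be too narrow. In the authors' deposited table of DESeq2 results 8 of the 45 had an adjusted p-value and none was below 0.05, the smallest being 0.279 for Npm1, against 227 of the 2697 genes with an adjusted p-value (8.42%).

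**Figure D1:**
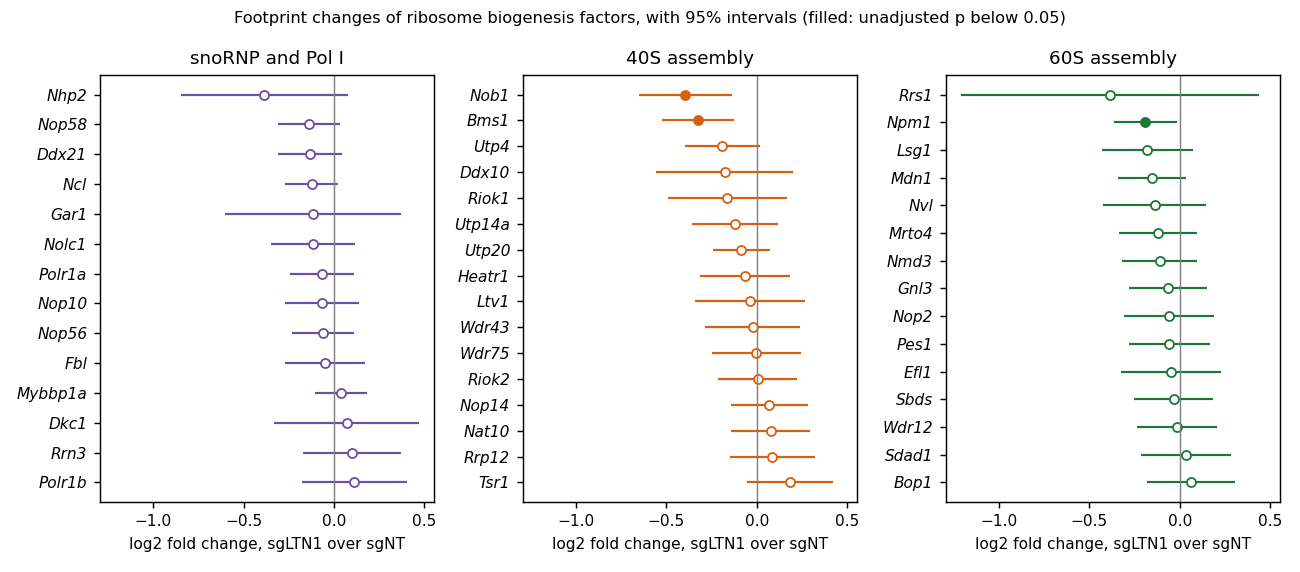
The log2 fold change of footprints (x axis, sgLTN1 over sgNT) is plotted for every factor (rows) in the 3 classes, with bars for the 95% interval and filled points for an unadjusted p below 0.05. Nob1, Bms1 and Npm1 are the 3 whose intervals do not reach 0, and the wide interval of Rrs1 belongs to a gene with 59 counts in all libraries together.

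**Figure D2:**
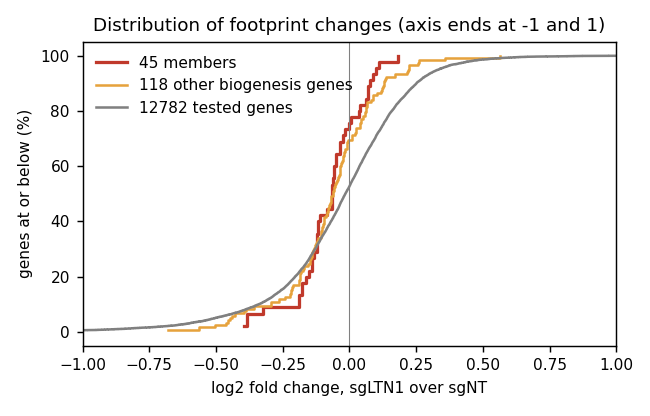
The share of genes at or below each log2 fold change (y axis, percent) is plotted for the 45 factors, 118 other biogenesis genes and all 12782 tested genes. The factors' curve is at 75.6% where the log2 fold change reaches 0, against 52.7% for all tested genes, and it spans only -0.40 to 0.18. Without sgLTN1 library 2 these shares were 54.5% and 49.6%.

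Promoters were compared as a feature that the choice of genes did not use. The canonical E-box CACGTG, the site bound by Myc with Max and by other factors of their class, reads the same on both strands. It was searched from 250 bases before to 50 bases after each start site in RefSeq promoters of build GRCm38.p6, which held 39 of the 45 genes and no entry for Npm1, Sbds, Rrp12, Fbl, Rrs1 or Bop1. CACGTG occurred in 12 of the 39 (30.8%), in 13 of 96 other biogenesis genes (13.5%) and in 1163 of 9822 tested protein-coding genes (11.8%). By class it occurred in 2 of 13 snoRNP and Pol I factors, 5 of 15 factors of 40S assembly and 5 of 11 factors of 60S assembly. The related hexamer CAGCTG, also a palindrome, occurred in 5 of the 39 (12.8%) and in 17.5% of tested protein-coding genes. In 9 of the 39 (23.1%) a CACGTG began in the 50 bases from the start site on, a window chosen after the positions were seen, against 5.21% of other biogenesis genes and 1.69% of tested protein-coding genes. Start sites are those of the promoter table, which gave 41 windows for the 39 genes. In 26 of the 41 the start site was the end of the gene in the RefSeq gene table and in 15 it was not, and 7 of the 9 genes with a hexamer after the start site were of the first kind, Mdn1 and Wdr43 of the second. The stretches below show both arrangements, each read 5′ to 3′ on the gene's strand with the hexamer in capitals. Those of Utp4, Tsr1, Wdr43, Pes1 and Sdad1 carry the hexamer after the start site.
Utp4, chr8:106893643-106893672, plus strand: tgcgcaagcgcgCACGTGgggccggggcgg
Tsr1, chr11:74898092-74898121, plus strand: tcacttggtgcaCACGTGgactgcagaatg
Wdr43, chr17:71616220-71616249, plus strand: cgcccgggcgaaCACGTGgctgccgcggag
Pes1, chr11:3963965-3963994, plus strand: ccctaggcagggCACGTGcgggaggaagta
Sdad1, chr5:92309986-92310015, minus strand: agcggcgtgtccCACGTGccgtttccggtt
The next stretches, of Nop2, Nmd3 and Rrn3, carry it before the start site, and Rrn3 holds 2 copies.
Nop2, chr6:125131811-125131840, plus strand: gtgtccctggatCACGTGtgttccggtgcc
Nmd3, chr3:69721929-69721958, plus strand: cgccccttgctaCACGTGtattctttgacc
Rrn3, chr16:13780472-13780501, plus strand: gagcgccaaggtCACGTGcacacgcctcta
Rrn3, chr16:13780639-13780668, plus strand: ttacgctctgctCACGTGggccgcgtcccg

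Footprint changes covered overlapping ranges with and without the hexamer. The 12 factors with CACGTG had a median log2 fold change of -0.05 and a range of -0.19 to 0.18, with 8 below 0. The 27 without it had a median of -0.12, with 22 below 0. Bms1 and Nob1, which had the smallest p-values, held no CACGTG in the window searched. The match is a description of the letters and not a measured binding site. Myc itself had 2.89 CPM in sgLTN1 cells and 3.70 CPM in sgNT cells, with a log2 fold change of -0.41 and an adjusted p of 0.455 by edgeR's quasi-likelihood test.

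Among the 14 snoRNP and Pol I factors none had an unadjusted p below 0.05, and 10 had a log2 fold change below 0 with a class median of -0.07. The core of the box C/D snoRNP, the particle that methylates rRNA, was measured through 3 proteins. Nop58, one of its scaffold proteins, had 49.8, 46.1 and 47.1 CPM in sgLTN1 libraries 1 to 3, against 53.4, 53.8 and 50.3 CPM in sgNT libraries 1 to 3. All sgLTN1 values of Nop58 lay below all sgNT values, by a log2 fold change of -0.14 with an adjusted p of 0.424 in edgeR's test. Its paralog and partner Nop56 had 138, 136 and 119.6 CPM in sgLTN1 libraries, against 139, 144 and 127 CPM in sgNT libraries, and the groups overlapped. The ratio of Nop56 to Nop58 counts was 2.75 ± 0.198 in sgLTN1 libraries and 2.60 ± 0.0730 in sgNT libraries (SD, n = 3 each), with overlap. Fbl, the methyltransferase of the same particle, differed by a log2 value of -0.05.

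The H/ACA snoRNP, which turns uridine into pseudouridine, had low counts and wide spread in 3 of its 4 proteins. Dkc1, its pseudouridine synthase, had 6.86, 7.06 and 9.25 CPM in sgLTN1 libraries, against 6.42, 6.80 and 8.41 CPM in sgNT libraries. Gar1, a subunit of that enzyme complex, had 14.0, 10.9 and 18.7 CPM in sgLTN1 libraries, against 11.5, 14.1 and 20.5 CPM in sgNT libraries. Nhp2, another subunit, had 7.22, 6.19 and 4.73 CPM in sgLTN1 libraries, against 7.79, 6.80 and 10.4 CPM in sgNT libraries. In all 3 genes the groups overlapped, and in Gar1 and Dkc1 either SD was wider than the difference of the means. The 95% interval of Nhp2 ran from -0.85 to 0.08 on the log2 scale and so took in 0 as well as a large difference. Nop10, the smallest subunit, differed by a log2 value of -0.06.

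Pol I itself showed no common direction. Polr1a and Polr1b, its catalytic subunits, had log2 fold changes of -0.07 and 0.11. Rrn3, the initiation factor that brings Pol I to the rDNA promoter and whose promoter stretches are shown above, had 40.4, 44.2 and 30.6 CPM in sgLTN1 libraries, against 37.6, 37.4 and 33.9 CPM in sgNT libraries. The sgLTN1 libraries held both the highest and the lowest value of Rrn3. Without sgLTN1 library 3 Rrn3 was higher in sgLTN1 cells at an unadjusted p below 0.05 in edgeR's test. This held in only 1 of the 15 alternatives. In that alternative 333 of all tested genes passed the adjusted threshold, against 23 with all libraries, and Rrn3 was not among them.

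Among the nucleolar pre-rRNA factors, Ddx21, an RNA helicase, had 44.5, 42.7 and 45.6 CPM in sgLTN1 libraries, against 46.5, 51.2 and 47.0 CPM in sgNT libraries. The groups did not overlap, and the log2 fold change of -0.13 had an adjusted p of 0.457 in edgeR's test. Ncl, or nucleolin, an abundant RNA-binding protein of the nucleolus, had 192, 178 and 187 CPM in sgLTN1 libraries, against 191, 214 and 201 CPM in sgNT libraries. The groups overlapped in Ncl by the library numbered 1 of each. Mybbp1a, a nucleolar Myb-binding protein, and the snoRNP chaperone Nolc1 had log2 fold changes of 0.04 and -0.12 with overlap.

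The 40S class held both factors with the smallest p-values and the highest and lowest fold changes of the 45. Its median was -0.05, with 11 of 16 below 0, 2 of 16 (12.5%) lower at an unadjusted p below 0.05, against 7.56% of all tested genes, and 4 of 16 (25%) without overlap, against 20.2%. Bms1, a GTPase of the SSU processome, had 26.9, 28.2 and 24.2 CPM in sgLTN1 libraries, against 33.9, 34.3 and 31.7 CPM in sgNT libraries. Every sgLTN1 value of Bms1 lay below every sgNT value, and the means of 26.5 ± 2.03 and 33.3 ± 1.39 CPM (SD, n = 3 each) differed by more than either SD. The log2 fold change was -0.32 with a 95% interval of -0.52 to -0.12, an unadjusted p of 0.0045 and an adjusted p of 0.152 by edgeR's quasi-likelihood test. The unadjusted p of Bms1 stayed below 0.05 in all 15 alternative analyses, and its adjusted p ranged from 0.0534 to 0.44 over the 14 that gave one, DESeq2's Wald test giving none.

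Nob1, the endonuclease that cuts the 3′ end of the small-subunit rRNA late in 40S maturation, had 13.8, 11.8 and 12.7 CPM in sgLTN1 libraries, against 15.8, 16.6 and 18.3 CPM in sgNT libraries. The groups of Nob1 did not overlap either. The log2 fold change was -0.40 with a 95% interval of -0.65 to -0.14, an unadjusted p of 0.00626 and an adjusted p of 0.162 by edgeR. It stayed below an unadjusted p of 0.05 in 14 of the 15 alternatives, with adjusted values from 0.0938 to 0.496 over the 14 that gave one, again without DESeq2's Wald test.

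Tsr1, a GTPase-like protein that sits on late pre-40S particles, had the opposite sign. It had 36.4, 36.1 and 46.2 CPM in sgLTN1 libraries, against 33.5, 34.0 and 35.8 CPM in sgNT libraries. The groups did not overlap, but the lowest sgLTN1 value was close to the highest sgNT value and sgLTN1 library 3 stood apart. The log2 fold change of 0.18 had an adjusted p of 0.448 in edgeR's test. The ratio of Nob1 to Tsr1 counts was 0.328 ± 0.0521 in sgLTN1 libraries and 0.491 ± 0.0199 in sgNT libraries (SD, n = 3 each), without overlap, which restates the opposite signs of 2 genes picked for them.

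Of the 4 UtpA proteins, the subcomplex of the SSU processome that binds the precursor first, the log2 fold change of Utp4 stood apart from 3 values close to 0. Utp4, whose hexamer is shown above, had 28.0, 31.1 and 30.2 CPM in sgLTN1 libraries, against 31.9, 32.7 and 37.3 CPM in sgNT libraries. The groups of Utp4 did not overlap, and the log2 fold change of -0.19 had an adjusted p of 0.361 in edgeR's test. Heatr1, a large repeat protein of the same subcomplex, had 67.8, 62.2 and 54.0 CPM in sgLTN1 libraries, against 70.4, 68.9 and 54.1 CPM in sgNT libraries, and its libraries numbered 3 were the lowest of both groups. The log2 fold changes of Heatr1, Wdr43 and Wdr75 were -0.07, -0.02 and -0.00, and without sgNT library 1 all 3 were above 0, at 0.01, 0.00 and 0.03.

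The other SSU processome factors and the late pre-40S factors overlapped between groups. Utp20, a very large scaffold protein of the SSU processome, had 88.9, 98.7 and 97.8 CPM in sgLTN1 libraries, against 98.8, 104.5 and 98.6 CPM in sgNT libraries. Only sgLTN1 library 1 lay clearly under the sgNT libraries of Utp20. Utp14a, Ddx10, a helicase, and Riok1, a kinase of cytoplasmic pre-40S particles, had log2 fold changes of -0.12, -0.18 and -0.16. Nop14, the rRNA acetyltransferase Nat10 and the export factor Rrp12 had 0.07, 0.08 and 0.09. Ltv1 and the kinase Riok2 were at -0.04 and 0.00.

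**Figure D3:**
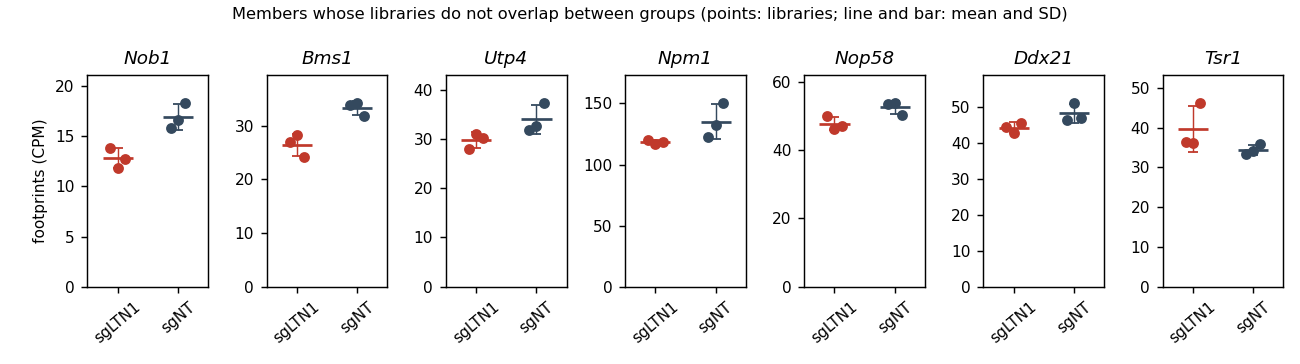
Footprints in CPM (y axis from 0, linear) are plotted for the 7 factors whose groups do not overlap, with a point per library and a line and bar for mean and SD. The gap is widest beside the spread in Bms1 and Nob1, and in Tsr1 a single sgLTN1 library at 46.2 CPM lies well above the other two.

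Of the factors of 60S assembly 13 of 15 were below 0, with a median of -0.07. That count rested on 1 library, since without sgLTN1 library 2 it was 7 of 14. One of the 15 (6.67%), Npm1, had an unadjusted p below 0.05, against 15.6% of all tested genes, and it was also the only one without overlap (6.67%, against 20.2%). Npm1, or nucleophosmin, an abundant nucleolar chaperone of large-subunit particles, had 120.2, 117 and 118 CPM in sgLTN1 libraries, against 123, 132 and 151 CPM in sgNT libraries. The sgLTN1 libraries lay close together, and sgNT library 3 stood above the other two. The log2 fold change was -0.19 with a 95% interval of -0.36 to -0.02, an unadjusted p of 0.0348 and an adjusted p of 0.278 by edgeR. In 8 of the 15 alternatives its unadjusted p was below 0.05. With a single library left out, it stayed below that value only when that library was sgNT library 1.

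Around Npm1 the other nucleolar 60S factors lay lower in sgLTN1 cells by their means, each within overlap. Mrto4, which holds the place of the stalk protein P0 on pre-60S particles, had 46.3, 42.7 and 36.2 CPM in sgLTN1 libraries, against 44.9, 47.0 and 45.3 CPM in sgNT libraries. Gnl3, or nucleostemin, and Nop2, an rRNA methyltransferase, had log2 fold changes of -0.07 and -0.06. Rrs1, a factor for loading the 5S ribonucleoprotein in yeast, had 6 to 13 counts per library and an interval of -1.21 to 0.44, too wide to describe a difference.

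The PeBoW complex, made of Pes1, Bop1 and Wdr12 and needed to process the large-subunit rRNA precursor, overlapped between groups in each member. Pes1, whose hexamer lies beside its start site, had 28.5, 25.7 and 31.0 CPM in sgLTN1 libraries, against 31.9, 27.5 and 29.3 CPM in sgNT libraries. Bop1 had 15.3, 15.6 and 15.4 CPM in sgLTN1 libraries, against 13.3, 15.6 and 15.1 CPM in sgNT libraries. Wdr12 had 26.7, 22.5 and 27.3 CPM in sgLTN1 libraries, against 25.7, 25.5 and 25.9 CPM in sgNT libraries. The log2 fold changes were -0.06, 0.06 and -0.02, and the upper and lower ends of the 3 intervals lay between -0.28 and 0.30.

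Mdn1, a giant AAA protein that pulls assembly factors off pre-60S particles, had 62.0, 60.4 and 56.9 CPM in sgLTN1 libraries, against 68.8, 71.0 and 59.5 CPM in sgNT libraries. The groups of Mdn1 overlapped by sgNT library 3, and the log2 fold change of -0.15 had an adjusted p of 0.425 in edgeR's test. Nvl, another AAA protein, and Sdad1 had log2 fold changes of -0.14 and 0.03. The late factors act from the nuclear pore outward. Nmd3, the adaptor for 60S export, had 26.0, 25.8 and 24.9 CPM in sgLTN1 libraries, against 29.6, 25.4 and 28.9 CPM in sgNT libraries. Lsg1, the GTPase that releases Nmd3 in the cytoplasm, had 20.3, 16.9 and 16.6 CPM in sgLTN1 libraries, against 22.2, 19.4 and 20.5 CPM in sgNT libraries. Both genes overlapped between groups, and their ratio did too. Sbds and Efl1, which together free the 60S subunit of its last anti-association factor, had log2 fold changes of -0.03 and -0.05.

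**Figure D4:**
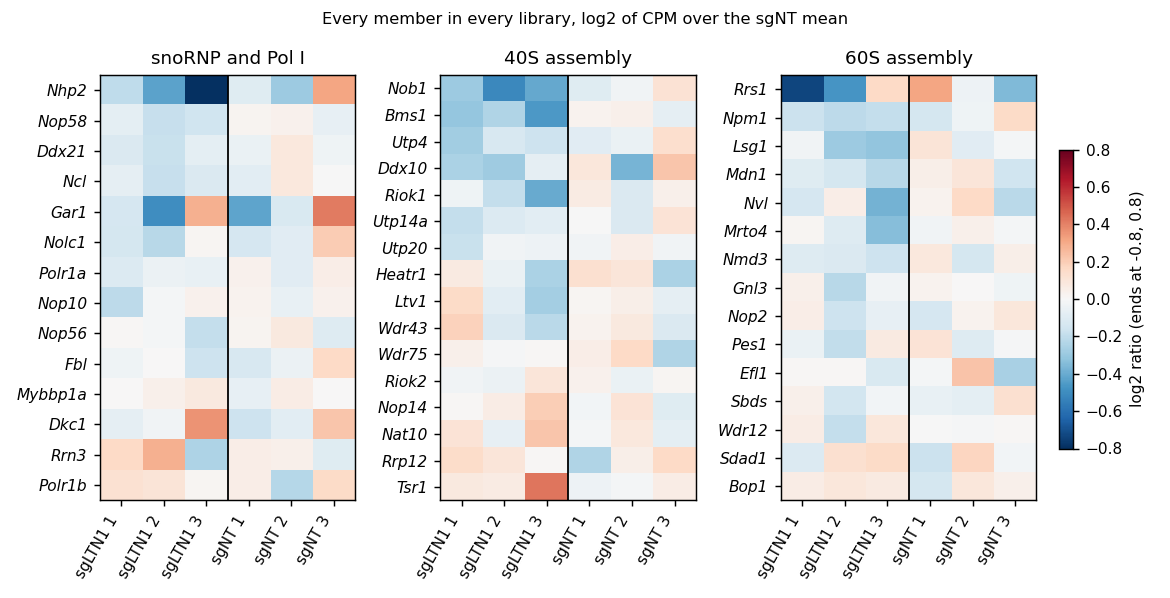
Each cell shows the log2 ratio of a factor's CPM in a library (columns, sgLTN1 libraries left of the line) to its mean over sgNT libraries, with colours ending at -0.8 and 0.8. All 3 sgLTN1 libraries lie below the sgNT mean in 16 of the 45 rows and above it in 6. That count was not taken over all tested genes, of which 52.7% had a log2 fold change below 0, against 75.6% of the factors. Without sgLTN1 library 2 these shares were 49.6% and 54.5%. Some of the strongest colours belong to genes of low count such as Nhp2, Gar1 and Rrs1.

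Summed over a class, footprints were a few percent lower in sgLTN1 libraries. The snoRNP and Pol I factors summed to 775, 762 and 761 CPM in sgLTN1 libraries, against 777, 818 and 809 CPM in sgNT libraries. The 40S factors summed to 464, 458 and 462 CPM in sgLTN1 libraries, against 478, 491 and 469.6 CPM in sgNT libraries. The 60S factors summed to 487, 465 and 465 CPM in sgLTN1 libraries, against 499, 516 and 515 CPM in sgNT libraries. No class overlapped between groups, though the snoRNP and Pol I sums nearly met. Sums of other gene sets were not taken, so how often such sums stand apart is not known here. The ratio of means was 0.956, 0.962 and 0.926 for the 3 classes in that order. Taken as shares of all gene counts, without TMM, the ratios were 0.908, 0.914 and 0.880, so their size depended on the scaling. Since the sums follow the genes with most counts, Npm1 made up 44.7% of the 60S difference and Ncl 46.0% of the snoRNP and Pol I difference. In the 40S class Bms1 and Utp20 made up the largest parts, 37.5% and 30.1%. Utp4 came next, slightly ahead of Nob1 with 22.6%. Tsr1 was the most opposed, and Nat10, Nop14 and Rrp12 were opposed as well. The parts in this class did not follow counts alone, since Heatr1 had more counts than Nob1 but made up less. The ratio of 40S to 60S sums was 0.977 ± 0.0211 in sgLTN1 libraries and 0.941 ± 0.0246 in sgNT libraries (SD, n = 3 each), and the values overlapped.

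**Figure D5:**
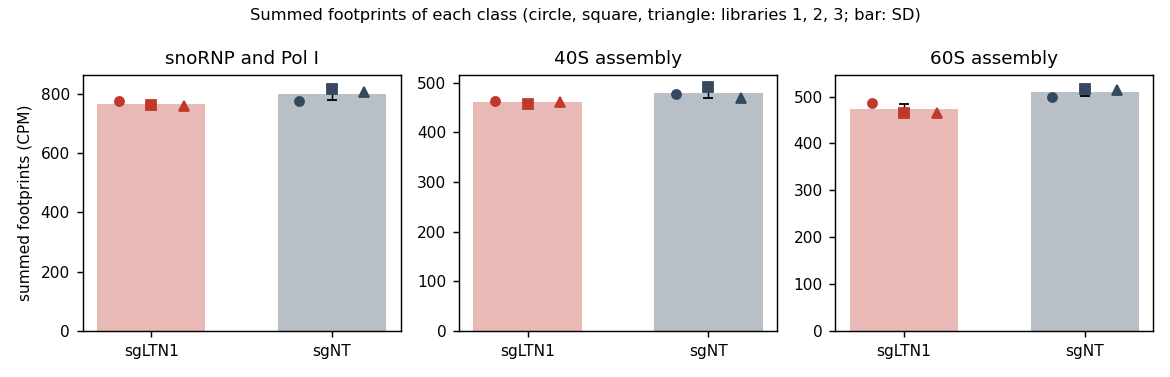
Summed CPM (y axis from 0) is plotted for each class, with bars for group means, error bars for the SD and symbols for libraries 1 to 3. The 60S sums are 465 to 487 CPM in sgLTN1 libraries and 499 to 516 CPM in sgNT libraries, while the snoRNP and Pol I sums of library 1 almost meet.

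Other ribosome biogenesis genes were described in the same way. Of 118 measured, 82 (69.5%) had a log2 fold change below 0, the median was -0.06, none passed the adjusted threshold, and 4 were higher and 9 lower at an unadjusted p below 0.05 (11.0%, against 15.6% of all tested genes). Groups did not overlap in 6 higher and 14 lower genes (16.9%, against 20.2%). Their log2 fold changes ran from -0.68 to 0.56, and the 95% interval reached past 0.5 on either side of 0 in 38 of them. Nufip1, an assembly factor of box C/D snoRNPs, had 12.3 ± 1.02 CPM in sgLTN1 cells and 16.6 ± 2.74 CPM in sgNT cells (SD, n = 3 each). Shq1, a chaperone of Dkc1, had 5.32 ± 0.346 CPM in sgLTN1 cells and 7.50 ± 1.33 CPM in sgNT cells. On the other side, Ttf1, the Pol I termination factor, had 13.0 ± 3.09 CPM in sgLTN1 cells and 8.86 ± 1.94 CPM in sgNT cells, with overlap. Polr1h, a small Pol I subunit, had 13.6 ± 1.35 CPM and 10.5 ± 1.37 CPM in the same order. The adjusted p of these 4 genes ran from 0.168 to 0.255 in edgeR's test.

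In the assembly classes the genes of smallest p were Pdcd11 and Imp3 (higher) and Nol7 and Abt1 (lower) for 40S, and Ddx24 and Nip7 (higher) and Npm3 and Rpf2 (lower) for 60S. Pdcd11, a large SSU processome protein, had 104 ± 2.16 CPM in sgLTN1 cells and 89.7 ± 10.1 CPM in sgNT cells. Npm3, a relative of Npm1, averaged 8.49 CPM in sgLTN1 cells and 12.3 CPM in sgNT cells, with a log2 fold change of -0.56. Rpf2, which works with Rrs1 in yeast, had 13.6 ± 0.755 CPM in sgLTN1 cells and 17.8 ± 2.54 CPM in sgNT cells. None of the 8 passed the adjusted threshold, with values from 0.205 to 0.469 in edgeR's test.

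Ribosome production is known to follow cell growth, and a list of proliferation genes was set beside the factors. Of 10 proliferation genes none passed the adjusted threshold, 9 had a log2 fold change below 0, the median was -0.14, and 5 (50%) were lower at an unadjusted p below 0.05 in edgeR's test, against 7.56% of all tested genes. Pcna, the sliding clamp of DNA replication, had 187 ± 1.68 CPM in sgLTN1 cells and 209 ± 5.72 CPM in sgNT cells. Cdk1, the mitotic kinase, had 86.5 ± 7.47 CPM in sgLTN1 cells and 100.2 ± 6.14 CPM in sgNT cells. Mcm3, Ccnb1 and Tyms had log2 fold changes of -0.17, -0.15 and -0.18, and Mki67 had 0.04 with overlap. The list was chosen with earlier results of these data known. Its median standard error was 0.0721, against 0.143 for all tested genes, so the shares at a p threshold are not like for like. The part of the proliferation genes in the small difference of the biogenesis factors was not tested.

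Several factors share another genomic feature, the snoRNA genes that lie within them. In the RefSeq table of GRCm38.p6, 7 of the 45 (15.6%) held at least 1 snoRNA gene within their span, against 3 of 117 other biogenesis genes (2.56%) and 288 of 12222 tested protein-coding genes (2.36%). Nop56 held 5, among them Snord57 and Snord110, Nop58 held 4, among them Snord11 and Snord70, Gnl3 and Wdr43 held 3 each, Ncl held 2, and Tsr1 and Dkc1 held 1 each. The Snord genes encode box C/D guide RNAs, so both scaffold proteins of that particle lie among the hosts. Protein-coding neighbours overlapped 10 of the 45 (22.2%) and 20.7% of tested protein-coding genes, for example Srr with Tsr1 and Idh3b with Nop56. These overlaps are of whole gene spans, introns included, and overlap of exons was not looked at. The sources used here do not say whether counting used strand, so whether reads of such pairs were mixed is not known.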

How the data were processed

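Ribosome profiling of MIN6 cells (6 libraries) was analysed from the raw read counts of each gene, as whole numbers, that the authors deposited. The submitters' processing notes name build GRCm39, the aligners STAR 2.7.11a and Bowtie2 2.5.4, the counter featureCounts 2.12.3, and fastp 0.23.4, SAMtools 1.9 and UMI-tools 1.1.2. For their settings, the annotation and the use of strand, nothing is given in the sources used here. A second deposited table holds, per the file headers, DESeq2 results (1.38.3 in the notes): log2 fold changes with their errors, raw and adjusted p-values, a Wald score and a signal level that is the mean of normalized counts.

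Genotype labels gave the groups and sample titles the library numbers. All libraries share a single batch label. Counts were fitted in R 4.3.3 with edgeR 4.0.16 (limma 3.58.1): filterByExpr, TMM (factors 0.954 to 1.04), quasi-likelihood test of group over all 12782 tested genes, and Benjamini-Hochberg adjustment at 0.05. The estimated biological coefficient of variation was 8.92%. DESeq2 1.42.0 was an alternative, among 15. The test was first tested on simulated data. Every pair of replicate libraries differed by more than sampling noise (chi-square per degree of freedom 2.40 to 6.49). The factors had 59 to 8182 counts each over all libraries, with a median of 1137, and 19 had fewer than 100 counts in some library. Reads may not be independent molecules, so counting precision is an upper limit.

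The 45 genes, their classes and the other lists were chosen with earlier results of these data known. Of 120 other biogenesis genes, 118 had a row under the symbol used. The rule for naming gave library values for factors below an unadjusted p of 0.05 and, among other genes, the 2 of smallest p in each direction and class. Further factors were given library values after their values were seen. Footprint density per codon and protein features were not analysed here for want of lengths, so levels are not compared between genes. RefSeq promoters and gene spans are of GRCm38.p6, another build than that of the counts, and were matched by symbol only.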

Additional observations from a re-analysis of the deposited data

How the results depend on the processing

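No biogenesis factor passed the adjusted threshold in the 15 alternatives, of which DESeq2's Wald test gave an adjusted p to only 8 of the 45 (not to Bms1 or Nob1) and the filter at 10 CPM tested 40, and the smallest adjusted p was 0.0534, for Bms1. The number of factors below an unadjusted p of 0.05, 3 as reported, was 9 with total counts, 5 with loess offsets against abundance and 1 with DESeq2's Wald test, and 2 to 4 with a library left out. The class medians were -0.14 (snoRNP and Pol I), -0.13 (40S) and -0.14 (60S) with total counts, which also moved the median of all genes to -0.09. With a library left out they ran from -0.0829 (without sgLTN1 library 3) to -0.0195 (without sgNT library 3) for snoRNP and Pol I, from -0.11 (without sgLTN1 library 1) to -0.00465 (without sgNT library 1) for 40S, and from -0.13 (without sgLTN1 library 1) to -0.0252 (without sgLTN1 library 2) for 60S. The causes were not tested. Factors below 0 numbered 24 of 44 (54.5%) without sgLTN1 library 2, where 49.6% of all genes were below 0, and 40 of 45 with total counts. Signs turned 46 times, in 20 genes with a reported log2 fold change of at most 0.12 in size. Over all genes, 23 calls as reported became 42 with total counts, 222 without a filter, 211 with DESeq2 and 208 with edgeR's likelihood ratio test, and 4 (without sgLTN1 library 2) to 333 (without sgLTN1 library 3) with a library left out.

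The groups share library numbers 1 to 3. Same-numbered libraries deviated together with correlations of -0.05, 0.07 and 0.09, so the numbers were not taken to pair the samples. With the replicate number as a block, 0 factors passed the adjusted threshold, 4 were below an unadjusted p of 0.05 (Mdn1 in addition), the class medians were -0.06, -0.07 and -0.08, and 609 genes were called in all. The planned comparison of footprint density with levels not divided by length was not run, since no lengths were at hand. Depth limits Rrs1, with 59 counts in all. Gar1 had 605 counts, and its coefficients of variation were 27.2% in sgLTN1 and 30.3% in sgNT libraries.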

Other observations

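The Myc network, which drives many biogenesis genes through the E-box, was set beside the factors as well. Of 8 listed genes 7 were tested, none had an unadjusted p below 0.05 in edgeR's quasi-likelihood test, and 4 had a log2 fold change below 0. Groups did not overlap in 1 of the 7 (14.3%), against 20.2% of all tested genes. That gene was Max, the partner of Myc, lower in sgLTN1 cells by a log2 fold change of -0.26 with an adjusted p of 0.387. The hexamer GACGTC, searched beside the E-box, occurred in 6 of the 39 factor promoters (15.4%), in 13.5% of other biogenesis genes and in 8.69% of tested protein-coding genes.

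As a share of all gene counts, the 45 factors held 0.165% ± 0.00524 in sgLTN1 libraries and 0.183% ± 0.00734 in sgNT libraries (SD, n = 3 each). This ratio of 0.902 is lower than the 0.949 of the summed CPM, because the share is taken of the whole total and the CPM after TMM.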
